A study of Mus musculus with 41 samples.

Results

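A set of 9 genes linked to macrophage identity, out of 21755 protein-coding genes annotated on the mouse autosomes and the X chromosome, were followed through 24 lists of histone-mark peaks. The 9 genes are Csf1r, Cx3cr1, Spi1, Irf8, Ptprc, Itgam, Adgre1, Tyrobp and Cd68. They were taken as a list of known identity and lineage factors, and every peak that overlapped a promoter, meaning 2 kb on either side of an annotated start site, or the gene body with 20 kb on each side (the locus) was assigned to the gene. Macrophages depend on the receptor encoded by Csf1r, which binds the growth factors M-CSF (Csf1) and IL-34. They are specified by the transcription factor PU.1 (Spi1), which acts with partners such as IRF8, and they display CD45 (Ptprc), CD11b (Itgam), F4/80 (Adgre1) and the fractalkine receptor (Cx3cr1) on their surface. TYROBP (DAP12) is the adaptor through which several of their activating receptors signal, and CD68 is a glycoprotein of their lysosomes. Active promoters usually carry H3K4me3 and H3K27ac and active enhancers H3K27ac, silenced lineage genes are often covered by Polycomb's H3K27me3, and H3K18la, the lactylation of lysine 18 of histone H3, is the mark around which the study was built.

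The marks were mapped by CUT&Tag, where DNA is cut and tagged at chromatin bound by an antibody against the mark. The 41 samples gave 1 peak list for each cell type and mark, 17 from 2 samples and 7 from 1 sample, and the samples of a list were pooled before peaks were called, so no list has a replicate of its own. Bone marrow-derived macrophages (BMDM, C57BL/6) were bone marrow precursors grown with M-CSF. Post-ischemia macrophages (PIM, C57BL/6) were sorted from the calf muscle of female mice 2 days after the blood supply of the hind limb was cut, as cells positive for CD45, CD11b, F4/80 and CD64. The products of Ptprc, Itgam and Adgre1 therefore selected these cells, and BMDM were grown from precursors with a ligand of the Csf1r product. For the last day before harvest the study's methods list a medium without naming M-CSF. The other cell types were whole gastrocnemius muscle (GAS, C57BL/6), primary myoblasts (MB) and the myotubes (MT) made from them (C57BL/6), adipocyte nuclei pulled down from the epididymal fat of female AdipoCre-NuTRAP mice (ADIPO, C57BL/6), and E14 embryonic stem cells kept in serum-LIF (ESC-ser) or 2i-LIF (ESC-2i). Stem cells went into the assay whole and the others as nuclei. H3K18la was mapped in all 8 cell types, H3K27ac in 5 (BMDM, PIM, GAS, ADIPO, ESC-ser), H3K4me3 in 4 (PIM, GAS, ESC-ser, ESC-2i) and H3K27me3 in 7 (all but ADIPO). Lists held between 11008 and 36823 peaks. The 3 BMDM lists, both MB lists and the H3K27ac lists of PIM and ESC-ser come from 1 sample each, and read depth, which the lists do not carry, was not used here.

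The labels were set beside marker genes. Of the 5 macrophage markers, Csf1r, Adgre1 and Cd68 are among the 9 genes, and Fcgr1 encodes CD64, a sort marker of PIM, so only Mertk is separate from both. Mertk did not set macrophages apart, with a locus signal of 239 ppm (parts per 1000000 of the list's peak signal) in BMDM and 76.8 in PIM against 256 in MB and 316 in ADIPO (log2 difference 0.82 ± 1.36, adjusted p = 0.803). All 5 macrophage markers (Csf1r, Adgre1, Fcgr1, Mertk, Cd68) had an H3K18la promoter peak in BMDM and in PIM, against 1 to 3 of 5 in the other 6 lists, and the summed signal of their loci was 1349 and 938 ppm against 173 to 561. PIM had promoter peaks at 4 of 5 neutrophil markers (S100a8, Ly6g, Csf3r and Cxcr2) and BMDM at 2 of 5, with summed signals of 146 and 78.7, against 130 in ADIPO (1 of 5) and at most 27 in the others. Both macrophage lists had 1 of 5 T-cell markers (Cd3d), 1 of 5 B-cell markers (Ms4a1, which lies among related genes and was called higher in macrophages, 8.72 ± 1.66, adjusted p = 0.0421), 2 of 4 endothelial markers (Pecam1, also made by myeloid cells, and Cdh5) and none of the 4 fibroblast, 4 muscle-fibre, 4 myogenic or 4 stem-cell markers. The summed signal of the B-cell markers was 494 ppm in BMDM and 435 in PIM, against 467 in ESC-ser. With no more than that in the macrophage lists, a difference of 8.72 leaves Ms4a1 next to no signal in the other 6 lists. The limit given below for Ptprc therefore holds for this call too. The wider loci of the muscle-fibre markers still held 255 ppm in BMDM and 168 in PIM, against 302 in MT and 404 in GAS. Among adipocyte markers BMDM had 1 of 4 (Adipoq) and PIM 2 of 4 (Adipoq and Pparg), and ADIPO had 4 of 4. Their summed signal was 321 ppm in BMDM and 225 in PIM, against 3265 in ADIPO and at most 221 (MB) in the rest. The muscle sample GAS had Csf1r and Mertk among the macrophage markers beside all 4 fibroblast and all 4 endothelial ones, and ADIPO had Mertk and Cd68. What the other cells in a sort or a tissue add to the values below was not tested.

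All 9 promoters carried an H3K18la peak in BMDM and all 9 in PIM. A promoter peak was called at 18.5% of all protein-coding genes in BMDM and at 37.8% in PIM, and in both lists at 17.2%. Of the 9 genes, 3 had a promoter peak in GAS (36.1% of all genes), none in MB (11.1%), 3 in MT (34.8%), 3 in ADIPO (44.7%), and 1 each in ESC-ser (33.4%) and ESC-2i (37.8%). The promoters of 5 genes, Adgre1, Cx3cr1, Itgam, Ptprc and Tyrobp, were marked in both macrophage lists and in no other H3K18la list, a pattern held by 228 genes, or 1.05% of all. The remaining 4 were marked elsewhere too, Csf1r in GAS and MT, Spi1 in GAS, MT and ADIPO, Irf8 in GAS and ADIPO, and Cd68 in MT, ADIPO and both stem-cell lists. With promoters of 1000 bp on either side, or with start sites of protein-coding transcripts only, Irf8 lost its call in BMDM, and with only the 5000 peaks of largest signal in each list 4 of the 9 genes kept a promoter peak in both macrophage lists.

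**Figure D1:**
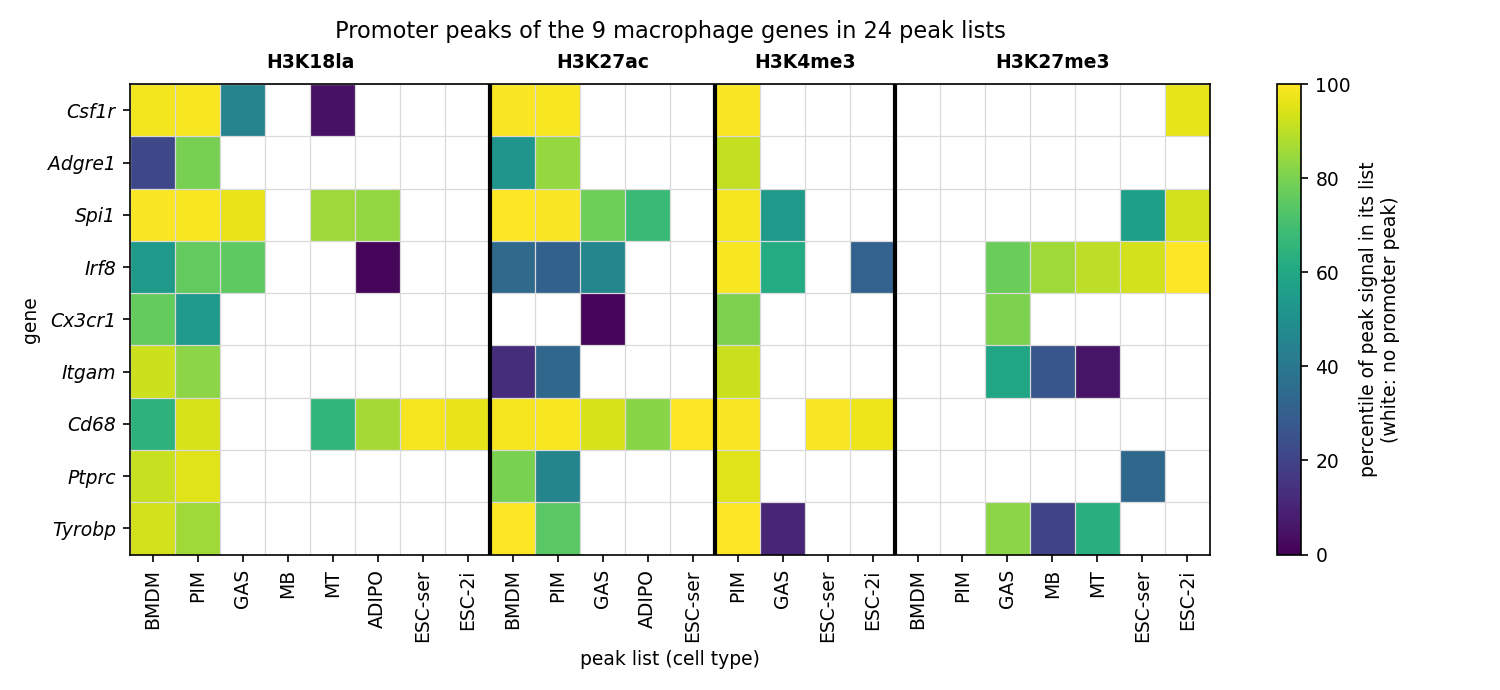
Promoter peaks of the 9 genes (rows) in the 24 peak lists (columns, grouped by mark). Colour gives the percentile of the strongest promoter peak's signal within its own list, with the strongest peaks at the top of the scale, and white means that no promoter peak was called. The BMDM and PIM columns are filled for all 9 genes in H3K18la and for none in H3K27me3.

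The promoter peaks of the macrophage lists were strong for their lists. Each peak is listed with its summed coverage, which was ranked within its own list as a percentile, with the strongest peak at the top. The strongest promoter peak of a gene lay between percentile 21.5 (Adgre1) and 99.5 (Spi1) in BMDM, with a median of 91.5, where the median over all peaks at promoters was 48.5. In PIM the percentiles ran from 53.7 (Cx3cr1) to 99.0 (Csf1r and Spi1), with a median of 85.6 against 53.5 over all promoter peaks. The peaks were also wide, at a median of 2045 bp in BMDM and 4040 bp in PIM against 958 and 1589 bp over all promoter peaks. The widths in BMDM went down to 800 bp at Cd68, 988 bp at Adgre1, 1020 bp at Cx3cr1 and 1039 bp at Irf8, near or below the median of all promoter peaks.

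H3K27ac gave a similar picture with 1 gap. Of the 9 promoters 8 were called in BMDM (34.0% of all genes) and the same 8 in PIM (48.8%), and 33.2% of all genes were called in both. The gene without a call was Cx3cr1, whose start site carried no H3K27ac peak in either macrophage list although H3K18la peaks of 1020 and 1791 bp lay over it. GAS had 4 of the 9 (47.0%), ADIPO 2 (46.1%) and ESC-ser 1 (40.2%). Csf1r, Adgre1, Itgam, Ptprc and Tyrobp were called in both macrophage lists and in no other, as were 1.64% of all genes. H3K4me3, which was mapped in PIM alone of the macrophages, was called at all 9 promoters there (59.4% of all genes), at 3 in GAS (64.2%), 1 in ESC-ser (48.8%) and 2 in ESC-2i (61.8%). The PIM promoter peaks of H3K4me3 had a median percentile of 98.8 and a median width of 6283 bp, against 67.0 and 2546 bp over all promoter peaks of that list. Here too only the strongest promoter peak of each of the 9 genes was counted. The 5 genes Csf1r, Adgre1, Cx3cr1, Itgam and Ptprc had H3K4me3 at the promoter in PIM and in none of the other 3 lists, as had 2.36% of all genes.

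H3K27me3 was distributed the other way. No promoter of the 9 genes was called in BMDM (19.2% of all genes) or in PIM (26.4%). GAS had 4 (23.9%), MB 3 (12.5%), MT 3 (20.1%), ESC-ser 3 (27%) and ESC-2i 3 (22.5%). Of the 9 genes 7 had such a peak in at least 1 of these lists and in neither macrophage list, a pattern that 18.1% of all genes share. The exceptions were Adgre1, whose few H3K27me3 peaks lay away from its promoter, and Cd68, whose locus had no H3K27me3 peak in any list. The genes differed in where the mark lay. Irf8 was called in all 5 lists, Itgam and Tyrobp in the muscle tissue and the muscle cells, Spi1 in both stem-cell lists, Csf1r in ESC-2i, Cx3cr1 in GAS and Ptprc in ESC-ser.

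The sequences just upstream of the start site are shown for the promoters whose marks are described. RefSeq (GRCm38.p6) entries matched 5 of the 9 genes, and Csf1r, Adgre1, Spi1 and Tyrobp had none in the table used. The 250 bases before the start site are given 5′ to 3′ on the strand of the gene, for Itgam (chr7:128062390-128062639, plus strand), Cd68 (chr11:69666171-69666420, minus strand), Ptprc (chr1:138175306-138175555, minus strand), Cx3cr1 (chr9:120068297-120068546, minus strand) and Irf8 (chr8:120736108-120736357, plus strand). Capitals mark every match, on either strand, to GAGGAA (a core bound by PU.1), TTGCNNAA (bound by C/EBP factors) or TATAAA (the TATA box).
Itgam: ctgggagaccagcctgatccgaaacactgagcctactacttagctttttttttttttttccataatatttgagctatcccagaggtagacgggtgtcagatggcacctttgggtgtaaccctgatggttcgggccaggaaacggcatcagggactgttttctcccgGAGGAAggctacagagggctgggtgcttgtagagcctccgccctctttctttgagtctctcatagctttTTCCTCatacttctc
Cd68: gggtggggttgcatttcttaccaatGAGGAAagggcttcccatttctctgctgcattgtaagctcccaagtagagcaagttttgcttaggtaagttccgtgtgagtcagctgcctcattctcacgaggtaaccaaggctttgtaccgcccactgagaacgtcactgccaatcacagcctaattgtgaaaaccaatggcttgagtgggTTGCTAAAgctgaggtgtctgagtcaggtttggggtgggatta
Ptprc: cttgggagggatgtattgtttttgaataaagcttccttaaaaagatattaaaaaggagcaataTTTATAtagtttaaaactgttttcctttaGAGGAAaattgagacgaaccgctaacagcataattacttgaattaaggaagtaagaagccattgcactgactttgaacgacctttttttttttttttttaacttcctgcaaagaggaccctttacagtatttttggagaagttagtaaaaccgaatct
Cx3cr1: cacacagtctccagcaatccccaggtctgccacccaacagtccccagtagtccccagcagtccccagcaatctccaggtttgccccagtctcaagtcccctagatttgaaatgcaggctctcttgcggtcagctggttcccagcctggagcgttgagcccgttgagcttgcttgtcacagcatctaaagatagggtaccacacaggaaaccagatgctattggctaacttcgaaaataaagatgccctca
Irf8: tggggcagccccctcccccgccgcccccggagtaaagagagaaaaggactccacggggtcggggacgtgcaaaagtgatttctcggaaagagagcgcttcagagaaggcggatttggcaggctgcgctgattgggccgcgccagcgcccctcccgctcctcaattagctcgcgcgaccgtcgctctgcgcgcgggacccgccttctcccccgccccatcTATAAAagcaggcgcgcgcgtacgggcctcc

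The letters GAGGAA occurred 2 times before Itgam, beginning 84 and 15 bases ahead of the start site, and once each before Cd68 and Ptprc. They were in 23.3% of the 32851 promoter windows of the same length in the table. TTGCNNAA occurred once, before Cd68 (9.56% of all windows), and TATAAA before Irf8, beginning 31 bases ahead of the start site, and in reverse before Ptprc (12.4%). The windows differed widely in composition, from 31.6% G and C at Ptprc to 67.2% at Irf8, with a median of 52.4% over all windows. H3K18la peaks of BMDM and PIM reached into the windows of Itgam, Ptprc and Cx3cr1 and no other list did. At Cd68 the 2 stem-cell lists reached in as well, and at Irf8 GAS alone did.

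Beyond promoters, the H3K18la signal was summed over each locus and expressed in ppm, parts per 1000000 of the list's summed peak signal. In both macrophage lists it was above every other list at 7 of the 9 loci, all but Cx3cr1 and Cd68, a separation found at 6.92% of all genes. H3K27ac separated at the same 7 loci (13.9% of all genes). H3K4me3 in PIM was above the other 3 lists at 8 loci, all but Cd68 (23.6%). At 7 of the 9 loci H3K27me3 had no peak in BMDM or PIM and at least 1 peak elsewhere (25.4%), the exceptions being Tyrobp and Cd68. In these bulk samples, fewer cells that carry a mark and less of the mark in each cell cannot be told apart.

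**Figure D2:**
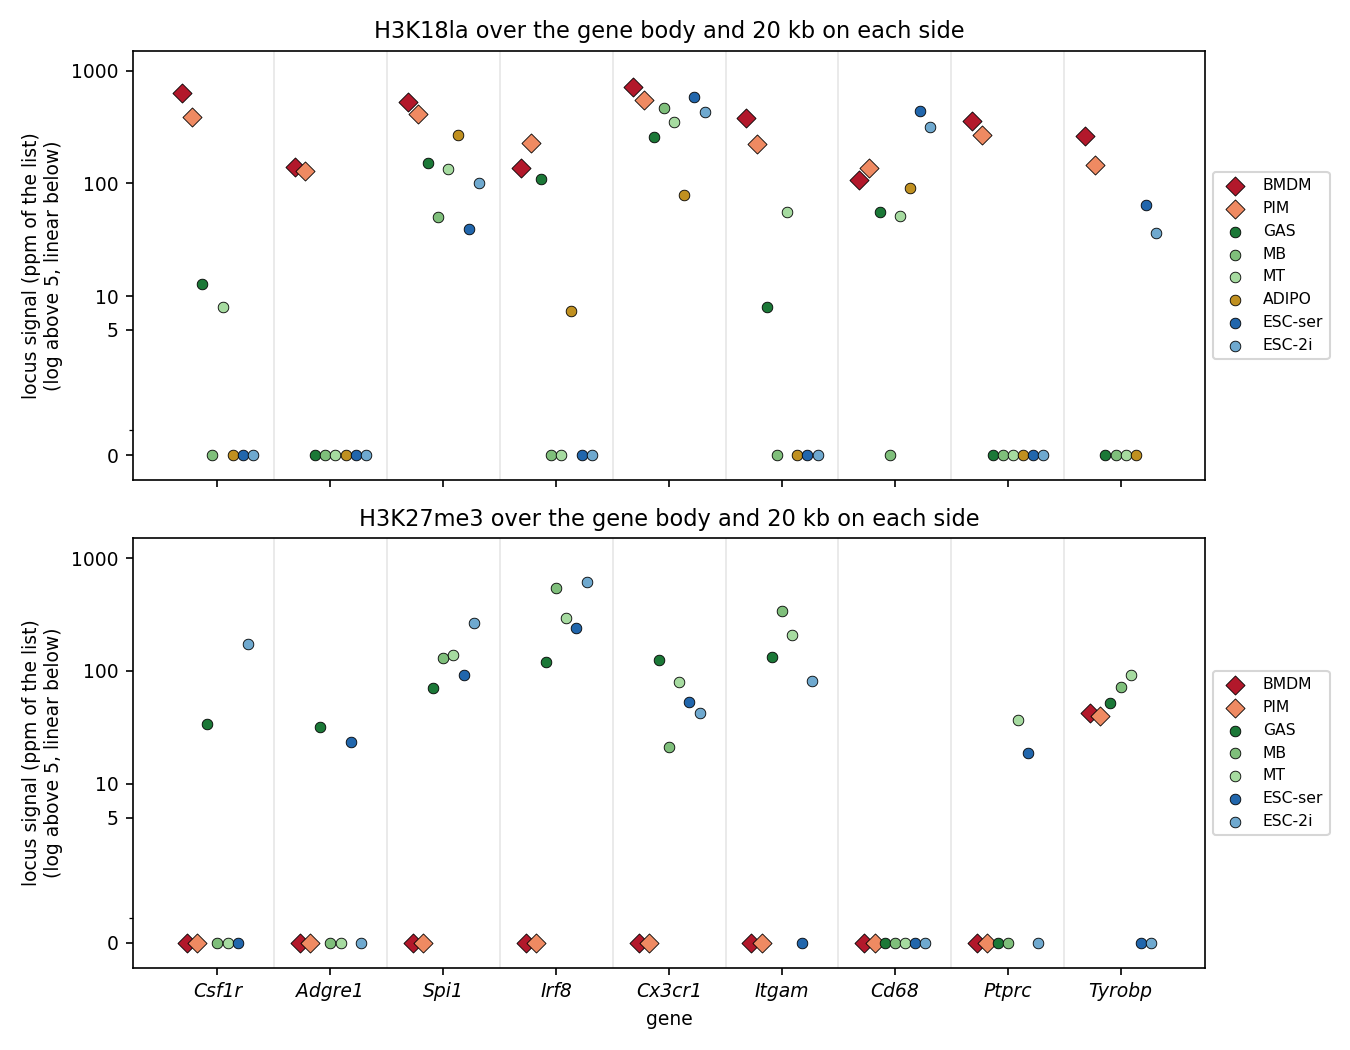
Signal in ppm over each locus (gene body and 20 kb on each side) for H3K18la in 8 lists and H3K27me3 in 7. Each point is 1 peak list, diamonds are BMDM and PIM, and the axis is logarithmic above 5 and linear below. For H3K18la the diamonds stand above all circles at 7 genes, and for H3K27me3 they stand at 0 at every gene but Tyrobp.

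The 2 macrophage lists were tested against the other cell types with limma, on log2 of the signal in ppm plus 1, with the cell type as the unit and p-values adjusted over all genes that had signal. For H3K18la 18579 genes were tested, 26 (0.140%) were called higher in macrophages and 67 (0.361%) lower, and the median gene differed by -0.61, so that a gene at -0.61 followed the bulk. One of the 9 genes was called, Ptprc, with a log2 difference of 8.28 ± 1.62 (SE, adjusted p = 0.0433). Ptprc had signal in the macrophage lists alone and so entered the test through them, and CD45 was a sort marker of PIM. The 6 other lists are all at 0 with no spread of their own. The size therefore depends on the constant of 1, and the p-value largely on the spread borrowed from other genes. With a constant of 0.1 Ptprc was still called (11.59, adjusted p = 0.0484), in a fit that called 37 of 18579 genes higher. Adgre1 (7.09 ± 1.50, adjusted p = 0.0536) and Csf1r (7.80 ± 1.99, adjusted p = 0.0924) missed the threshold of 0.05. The other 6 differed by 1.02 to 6.69 with adjusted p from 0.212 to 0.803, and the median of the 9 differences was 5.83. With only the 5000 strongest peaks of each list 6 of the 9 were called higher, as were 363 of all 12469 genes tested, and none with signal at promoters only, with the covered share of the locus in place of the signal, with the stem cells left out, or without GAS, MB, MT, ADIPO, ESC-ser or ESC-2i. For Csf1r, Adgre1, Irf8, Itgam, Ptprc and Tyrobp at least 4 of the 6 other lists were at 0, so their differences depend on the constant of 1 and are no measure of fold.

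For H3K27ac limma called 0 of 16926 genes (0%) in either direction, with 1541 at an unadjusted p under 0.05, and the 9 genes had adjusted p from 0.483 to 0.812. Of the 9 genes, 4 (Csf1r, Adgre1, Itgam and Ptprc) were called higher by eBayes without trend, as were 150 of all 16926 genes, and the same 4 without BMDM, which leaves 1 macrophage list, as were 618 of 16855. With the 5000 strongest peaks Csf1r and Adgre1 were called, as were 786 of 12254 genes. These 4 genes had no H3K27ac peak in any of the 3 other lists, so the limit given for Ptprc holds for them too. For H3K27me3 it called 0 of 16204 genes (0%), with 1627 at an unadjusted p under 0.05. The lowest adjusted p among the 9 genes for that mark was at Irf8, whose log2 difference was -8.28 ± 1.16 (adjusted p = 0.0545), followed by Spi1 at -6.99 ± 1.34 (adjusted p = 0.0830). Irf8, Spi1 and Itgam were called lower when the stem cells were left out, with adjusted p = 0.0342 for each, in a fit that called 466 genes lower and 484 higher of 14721. All 3 are at 0 in both macrophage lists, which have no spread of their own there, and the size of the difference depends on the constant of 1. With the stem cells kept and peaks at promoters of other genes left out, limma gave -5.61 at Spi1 (adjusted p = 0.240). In that fit Itgam was at -2.60 (adjusted p = 0.723) and Irf8 stayed at -8.28 (adjusted p = 0.0983).

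Csf1r, the receptor for M-CSF and IL-34, lies at chr18:61100598-61132149 (mm10, plus strand). Its locus held 632 ppm of the H3K18la signal in BMDM and 391 in PIM, 12.8 in GAS and 8.01 in MT, and no peak in MB, ADIPO or the stem cells. The macrophage lists thus lay far above the rest and the groups did not overlap. In BMDM 5 peaks and in PIM 8 were called, and 5 places were marked in both. Positions are given from the start site, with negative values upstream. The strongest peak ran from -0.98 to 3.68 kb in BMDM (percentile 98.1) and from -2.71 to 4.31 kb in PIM (percentile 99.0), so it covered the start and the first part of the gene. A further peak lay at -7.75 to -3.24 kb in BMDM and at -6.72 to -3.03 kb in PIM, over an upstream annotated start, and 2 more shared ones lay further upstream. The GAS and MT peaks were narrow pieces of the same first region, from 1.62 to 4.05 kb and from 2.29 to 4.11 kb after the start site, at percentiles 44.7 and 4.96, and with promoters of 1000 bp on either side neither counted as promoter. H3K27ac covered 11983 bp from -7.20 to 4.79 kb in BMDM (percentile 99.6), with 629 ppm in BMDM, 262 in PIM and no peak in GAS, ADIPO or ESC-ser. Stem cells in 2i-LIF had instead an H3K27me3 peak of 20108 bp over the start site (percentile 96.1).

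Cx3cr1, the receptor of fractalkine, lies at chr9:119901616-120069879 on the minus strand in GENCODE, but one annotated transcript carries the gene body over several neighbours, and its RefSeq body spans only 19.6 kb. Over the GENCODE locus H3K18la stood at 709 ppm in BMDM and 547 in PIM and at 78.9 to 583 in the other 6 lists, with ESC-ser at 583 above PIM, so the groups overlapped. The log2 difference was 1.02 ± 0.74 over this locus and 7.25 over the RefSeq body, an alternative chosen after seeing the data, and neither was called (adjusted p = 0.660 and 0.127). BMDM and PIM shared an H3K18la peak over the start site, at percentiles 76.4 and 53.7, and a series of peaks from 9.21 to 31.44 kb downstream, and of all these places only that at 17.26 to 19.34 kb was marked in another cell type, MT. For H3K27ac the promoter was called in GAS alone, by a peak of 2904 bp at percentile 1.76. H3K27me3 was absent from the locus in BMDM and PIM and present in the other 5 lists, at 21.0 to 125 ppm, with the promoter called in GAS.

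Spi1 encodes PU.1, the transcription factor that sets the myeloid program, and lies at chr2:91082390-91115756 (plus strand). Its H3K18la locus signal was 530 ppm in BMDM, 412 in PIM, 267 in ADIPO, 152 in GAS, 133 in MT, 100 in ESC-2i, 50.1 in MB and 39.7 in ESC-ser. All 8 lists had signal and the macrophage lists were the highest, with ADIPO next. Part of it belonged to neighbours, and without peaks at promoters of other genes MB and ESC-2i dropped to 0 and ESC-ser to 17.1, while BMDM kept 489 and PIM 389. The strongest H3K18la peak was not at the start of the main transcript but upstream, over another annotated start, and was counted as promoter there. It ran from -15.00 to -7.51 kb in BMDM (7492 bp, percentile 99.5) and from -16.18 to -4.01 kb in PIM (12171 bp, percentile 99.0), in a region known to hold an enhancer through which PU.1 acts on its own gene. GAS, MT and ADIPO had peaks in the same stretch. A second peak began 0.48 kb after the start in BMDM (percentile 73.1) and 0.20 kb after it in PIM (percentile 97.0). H3K27me3 was at 70.4 to 268 ppm in the 5 other lists and had no peak in either macrophage list, so these groups did not overlap either. Without peaks at promoters of other genes it was 106 in ESC-2i, 53.1 in GAS, 52.4 in ESC-ser, 39.5 in MT and 20.8 in MB.

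**Figure D3:**
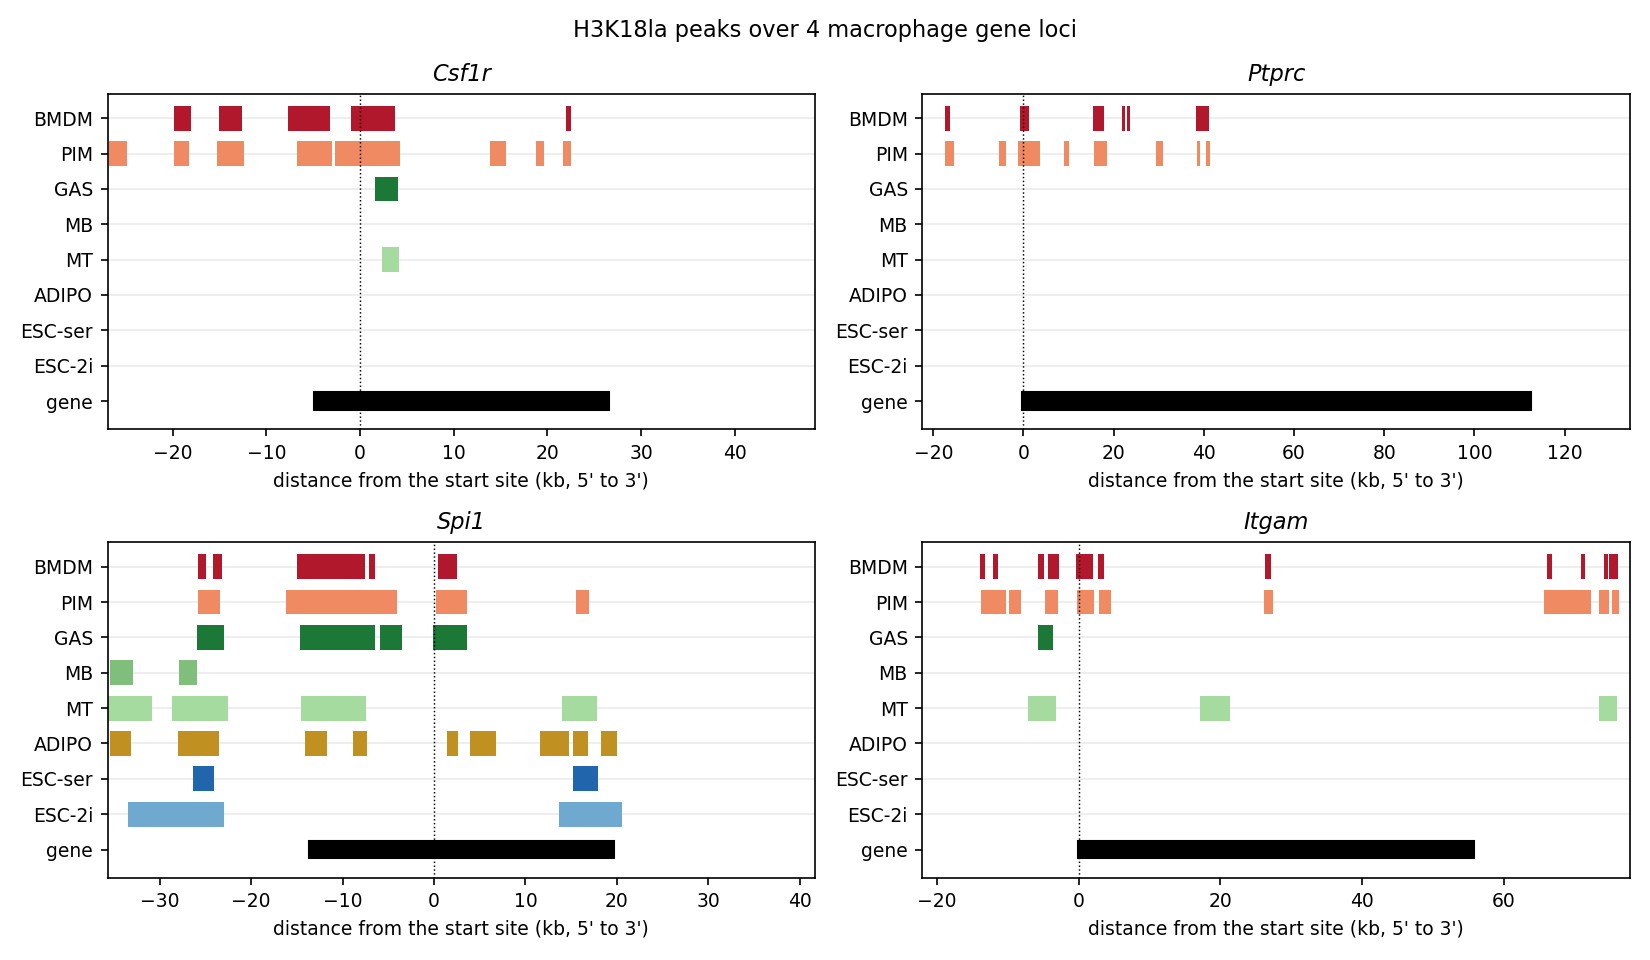
H3K18la peaks of the 8 cell types over the Csf1r, Ptprc, Spi1 and Itgam loci. The horizontal axis is the distance in kb from the main start site in the direction of transcription, each box is 1 peak drawn to scale, and the black bar is the gene. Csf1r, Ptprc and Itgam have their start covered in BMDM and PIM alone, and at Spi1 the broad upstream region is covered in GAS and MT too.

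Irf8, a partner of PU.1 that directs precursors toward monocytes and dendritic cells, lies at chr8:120736358-120756694 (plus strand). Its H3K18la locus signal was 226 ppm in PIM, 137 in BMDM, 109 in GAS and 7.44 in ADIPO, with no peak in the other 4 lists. GAS thus came close to BMDM. The peaks differed in place, since in BMDM the only one called as promoter lay 7.04 to 8.07 kb inside the gene, over a minor annotated start, in PIM peaks began 0.29 kb after the main start, and in GAS a peak spanned it. BMDM and PIM shared marked regions upstream instead, in BMDM between -21.25 and -15.90 kb and from -11.36 to -10.77 kb, where no other cell type had an H3K18la peak. H3K27ac at the promoter was called in BMDM (percentile 34.7), PIM (percentile 31.2) and GAS (percentile 46.3), with 127, 136 and 86.0 ppm over the locus. H3K4me3 covered 11585 bp in PIM (percentile 99.1), with 241 ppm against 38.4 in GAS, 28.3 in ESC-2i and no peak in ESC-ser.

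The Irf8 locus was also widely covered by H3K27me3 outside macrophages. The signal was 613 ppm in ESC-2i, 547 in MB, 295 in MT, 241 in ESC-ser and 119 in GAS, with no peak in BMDM or PIM. In ESC-2i a single peak of 61079 bp (chr8:120724711-120785789), the 34th strongest of 24613, ran from -11.65 kb to far past the end of the gene, and peaks covered 92.7% of the locus. Peaks covered 70.5% of it in MT, 50.3% in ESC-ser, 39.8% in MB and 33.9% in GAS. GAS was the list with both H3K18la and H3K27me3 peaks in the locus. In whole muscle, cells that differ in their marks and marks that share 1 nucleosome cannot be told apart.

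**Figure D4:**
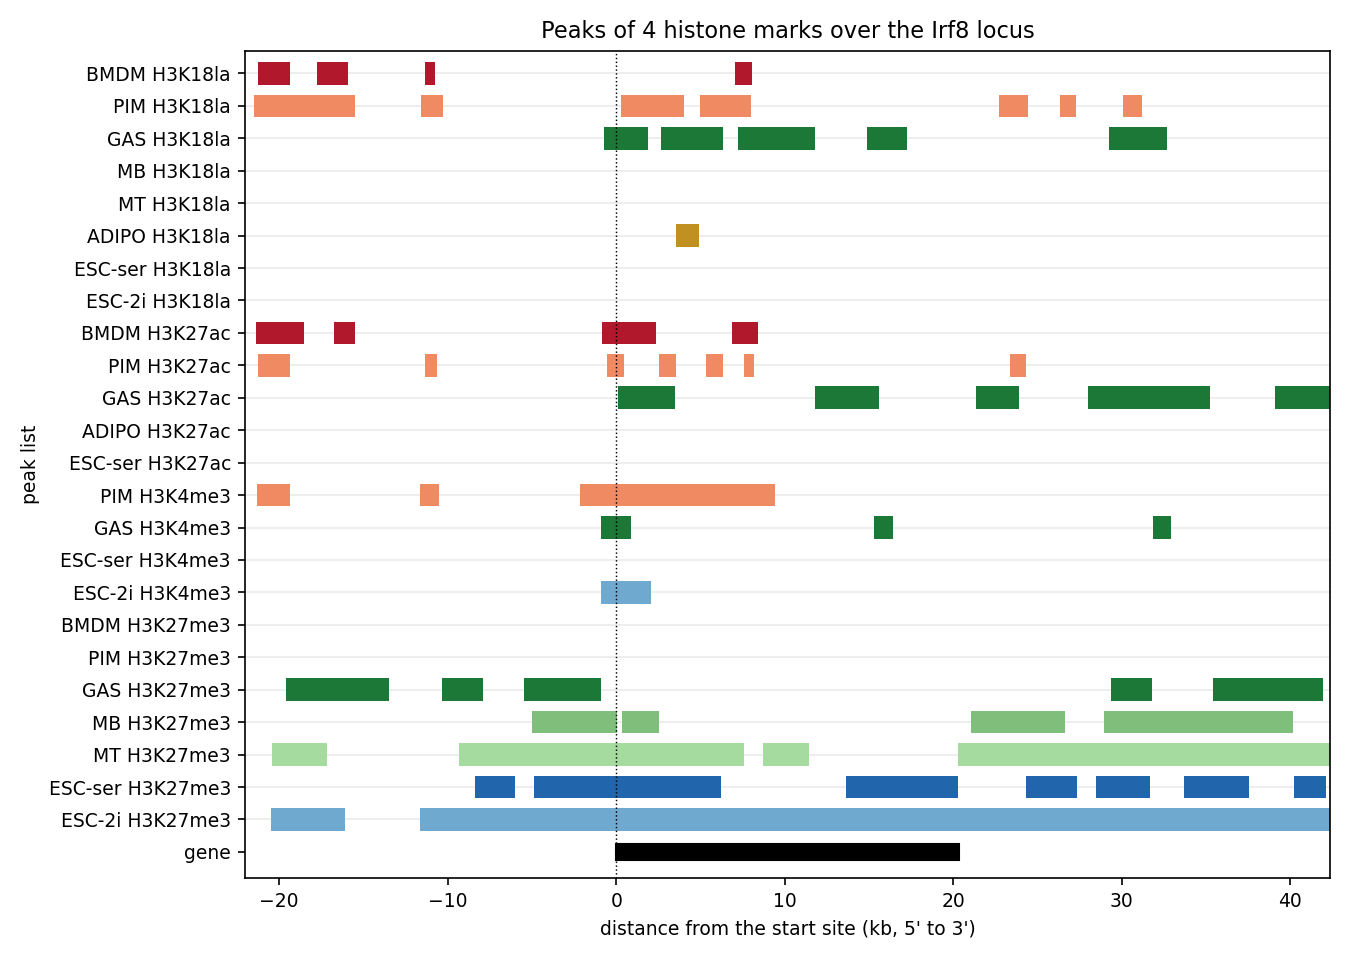
Peaks of all 24 lists over the Irf8 locus, by distance in kb from the main start site in the direction of transcription, each box 1 peak to scale and the black bar the gene. H3K27me3 peaks lie in the rows of all 5 other cell types and are missing from BMDM and PIM, whose H3K18la peaks upstream of the start have no counterpart in another cell type.

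Ptprc, which encodes the tyrosine phosphatase CD45 of all white blood cells, lies at chr1:138062861-138175708 (minus strand). Its H3K18la locus signal was 359 ppm in BMDM and 266 in PIM, and none of the other 6 lists had a peak anywhere in the locus. H3K27ac was 311 and 163 ppm with no peak in GAS, ADIPO or ESC-ser, and H3K4me3 was 204 in PIM with no peak in the other 3 lists. The promoter peak of H3K18la was 2045 bp in BMDM (percentile 91.5) and 4813 bp in PIM (percentile 95.2). Outside the promoter 3 places were shared by both macrophage lists in both H3K18la and H3K27ac, in BMDM from -17.35 to -16.30 kb and from 15.35 to 17.82 and 38.23 to 41.05 kb inside the gene. No other protein-coding gene has a start site in this locus. H3K27me3 was nearly missing, with 36.9 ppm in MT and 18.6 in ESC-ser, where the peak counted as promoter was 870 bp wide and lay 54.91 kb inside the gene at a minor start.

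Adgre1, the adhesion receptor known as F4/80, lies at chr17:57358691-57483527 (plus strand). It had 141 ppm of H3K18la in BMDM and 129 in PIM, and no peak in the 6 others. These were the 2 closest values of any of the 9 genes. Each list had 4 peaks in the same 4 places, 1 at the start site and 3 between -20.66 and -9.10 kb, and the 125 kb of the gene body held none past the start. The strongest was the nearest upstream peak, at percentile 87.9 in BMDM and 88.8 in PIM, above the promoter peak of both lists. H3K27ac was 180 and 91.7 ppm, with no peak in the other 3 lists.

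Itgam encodes the CD11b chain of the integrin Mac-1 and lies at chr7:128062640-128118491 (plus strand), next to Itgax. The H3K18la signal was 381 ppm in BMDM, 222 in PIM, 55.1 in MT and 7.97 in GAS, with no peak in the other 4. The promoter peak was of like width in both macrophage lists, 2374 and 2305 bp, and also covered the start of the overlapping gene model Gm49368. Without peaks at promoters of other genes BMDM kept 228 and PIM 112, against 47.1 in MT. MT and GAS shared 1 place, from -5.76 to -3.65 kb in GAS, where BMDM and PIM were also marked. H3K27ac was weaker here than H3K18la relative to other peaks, at percentiles 13.1 and 33.5. H3K27me3 was 341 ppm in MB, 207 in MT, 133 in GAS and 80.6 in ESC-2i, with no peak in BMDM, PIM or ESC-ser. Without peaks at promoters of other genes MB kept 101 and GAS 79.9, while MT and ESC-2i dropped to 0.

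Tyrobp, a gene of 3.83 kb that encodes the adaptor DAP12, lies at chr7:30413760-30417585 (plus strand), beside Hcst, which encodes the related adaptor DAP10. H3K18la was 262 ppm in BMDM, 146 in PIM, 64.7 in ESC-ser and 36.2 in ESC-2i. The stem-cell signal was all at promoters of neighbours, and without those peaks BMDM had 159, PIM 72.0 and the other 6 lists 0. H3K27ac in BMDM formed a peak of 13217 bp (percentile 99.9) against 1625 bp in PIM (percentile 74.3). Over the locus H3K27ac was 918 ppm in BMDM and 225 in PIM. Without peaks at promoters of other genes BMDM kept 83.5 and PIM 77.2. H3K27me3 was the mark that set this gene apart from the other 8, with 42.2 ppm in BMDM and 39.4 in PIM beside 52.4 in GAS, 72.6 in MB and 92.3 in MT. In BMDM and PIM this came from a single domain, 34379 and 34351 bp wide, that begins 21.41 and 21.13 kb after the Tyrobp start and covers the promoters of Aplp1, Nphs1 and Kirrel2. In GAS, MB and MT peaks reached the Tyrobp promoter itself.

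Cd68, at chr11:69664213-69666153 (minus strand), lies in a locus crowded with other genes. H3K18la was 436 ppm in ESC-ser and 319 in ESC-2i, 136 in PIM, 108 in BMDM, 90.6 in ADIPO, 55.8 in GAS and 51.4 in MT, with no peak in MB, so both stem-cell lists stood above both macrophage lists. The neighbours Eif4a1, Senp3, Mpdu1, Fxr2, Sox15 and Tnfsf13 begin in the locus, and every peak of any list there touched the promoter of at least 1 of them. The signal of Cd68 and that of its neighbours therefore cannot be told apart in these lists. The BMDM peak over the start site was 800 bp wide and the stem-cell peaks 23737 and 22999 bp.

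The marked places away from promoters were counted too. BMDM had 59 H3K18la peaks in the 9 loci, 36 of them at no promoter of a protein-coding gene, and PIM had 67 and 42. The GENCODE locus of Cx3cr1, which runs over several neighbours, held 16 of the 59 and 19 of the 67. Of the 36, 27 (75%) overlapped no H3K18la peak of the other 6 cell types, and of the 42, 31 (73.8%). Over all such peaks in gene loci the shares were 37.1% in BMDM and 38.0% in PIM. H3K18la of the other macrophage list overlapped 32 of the 36 in BMDM (79.5% of all) and 26 of the 42 in PIM (41.3% of all). H3K27ac of the same cell type overlapped 16 of the 36 (45.6% of all) and 20 of the 42 (41.0% of all), so with H3K27ac the 9 loci were close to the background. Peaks of 1 locus lie in the same chromatin and are not independent of each other.

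The 2 macrophage types were also set side by side. For H3K18la the log2 difference of PIM from BMDM ran from -0.84 at Tyrobp to 0.72 at Irf8, 7 of the 9 were lower in PIM, and the median was -0.37. Over all genes with signal in either list the median was 1.07, with quartiles at -0.19 and 3.55, so the median of the 9 lay below the lower quartile. All 9 had signal in both lists, while the background also holds genes at 0 in 1 of them. BMDM has the shorter list, with 19586 peaks against 32087 in PIM. For H3K27ac the differences ran from -2.02 at Tyrobp to 0.72 at Itgam, with a median of -0.64 against 0.33 over all genes. At Tyrobp most of that signal lay in peaks that also touched promoters of neighbours. Without those peaks BMDM had 83.5 ppm there and PIM 77.2. Each type has 1 list per mark, so these differences have no replicate check.

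Of 38 other genes of the same pathways, 26 had an H3K18la promoter peak in both macrophage lists (17.2% of all genes), 6 in those and no other (1.05%), and 20 had a locus signal above every other list (6.92%). Limma called 2 higher and 1 lower, and the median log2 difference was 3.13 against -0.61 over all genes. Among 8 lineage transcription factors 6 were marked in both lists but none in macrophages alone, and no difference was called (median 3.86). Ikzf1, a lymphoid and myeloid zinc-finger factor, was at 177 and 189 ppm in BMDM and PIM and 38.5 in ADIPO (6.64 ± 2.04, adjusted p = 0.181). Among 7 TYROBP partners and signalling kinases 5 were marked in both and 2, the receptors Trem1 and Trem2, in macrophages alone. Trem1 was called higher, with 114 and 368 ppm in BMDM and PIM and no peak elsewhere (7.69 ± 1.58, adjusted p = 0.0486, with the same limit as at Ptprc, since all 6 other lists are at 0), and Trem2 was not (6.27 ± 2.14, adjusted p = 0.261).

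Among 10 other macrophage genes 9 were marked in both lists and 3 (Fcgr1, Mrc1, Aif1) in no other. Ccr2, the chemokine receptor of recruited monocytes, was called higher over its locus, with 148 in BMDM and 373 in PIM and no peak elsewhere (7.88 ± 1.59, adjusted p = 0.0461, again against 6 lists at 0), although its promoter was not called in both lists. Lyz2 (6.46 ± 1.92, adjusted p = 0.158) and Cd14 (3.39 ± 1.15, adjusted p = 0.256) were not called, and Cd14 reached 1457 in BMDM against 328 in PIM. Of 5 integrin genes 3 were marked in both and none in macrophages alone, and Itgax stood at 77.0 and 75.5 ppm against 0 to 8.61 (5.73 ± 1.71, adjusted p = 0.158). Of 8 growth factors and receptors 3 were marked in both and 1, Csf3r, in those alone, although over its locus ADIPO (110 ppm) stood above BMDM (59.5) and PIM (71.5). Il34, the second ligand of the Csf1r product, was called lower, with no peak in BMDM or PIM and 148 to 632 ppm in all 6 others (-8.23, adjusted p = 0.0049, where the 2 macrophage values are both 0 and the size depends on the constant).

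A majority of the 9 promoters was called in exactly 5 of the 24 lists, the H3K18la and H3K27ac lists of BMDM and PIM and the H3K4me3 list of PIM. Adgre1 matched this pattern in all 24 lists and Ptprc in 23, and Irf8 in the fewest, 14. Outside the 9 loci 32 genes matched it in all 24. The 6 of these with the most H3K18la signal in BMDM and PIM together were Cd300a (985 and 398 ppm), Clec4e (426 and 580), Gm49339 (223 and 741), Lilr4b (223 and 740), Lilrb4a (223 and 658) and Tnip3 (447 and 363). The gene models Gm49339, Lilr4b and Lilrb4a overlap in 1 locus, so their peaks are shared.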

How the data were processed

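CUT&Tag peak lists for 4 marks in 8 mouse cell types were used, 24 lists from 41 samples. Per the labels and the study's methods, the authors trimmed reads with Trim Galore 0.6.6, aligned them to mm10 with Bowtie2 2.4.4, pooled the samples of a cell type and mark, and called peaks with SEACR 1.3 as the top 1% of regions by signal. The deposited values are the total signal of each peak, a sum of coverage that is not scaled to depth. Depth per sample is unknown from these lists and was not used, so the absence of a peak means only that none passed that list's threshold.

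Peaks on the autosomes and the X chromosome were assigned to GENCODE M21 genes by overlap of at least 1 base with a promoter (2000 bp on either side of any annotated start) or a locus (gene body with 20 kb on each side). Signal over a locus was given in ppm, parts per 1000000 of the list's summed signal. BMDM and PIM were compared with the other cell types by limma 3.58.1 (R 4.3.3, trended eBayes) on log2 of that value plus 1, over all protein-coding genes with signal in at least 1 list, with Benjamini-Hochberg adjustment and a threshold of 0.05. The cell type was the unit, so the p-values measure the spread between cell types and not between animals or cultures. H3K4me3 (1 macrophage list), promoter calls, widths and ranks are described without a test. The script was tested on simulated data.

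Named genes are the 9 genes, the 8 of 38 fixed pathway genes with the smallest p for H3K18la, neighbours whose promoters a peak overlapped, the fixed cell type markers called in BMDM or PIM, and the 6 genes outside the 9 loci that matched the majority's promoter calls in the most lists. Csf3r, Fcgr1, Mrc1 and Aif1, which stand behind small counts, were named after their values were seen. The 9 genes and all lists were chosen with earlier results of these data known. Alternatives were a constant of 0.1, a filter of 5 ppm in 2 lists, the 5000 largest peaks, gene bodies or promoters only, the covered share, no peaks at other promoters, eBayes without trend, no stem cells, each cell type left out, other promoter definitions and, chosen after seeing the data, RefSeq gene bodies.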

Additional observations from a re-analysis of the deposited data

Results flagged for a closer look

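For each of the 9 genes and each mark with enough lists, the highest and lowest of the lists other than BMDM and PIM were compared with the rest by Dixon's ratio, the gap to the nearest list over the whole range. Of 15 groups 3 stood out, where chance flags about 1 in 20 groups of untied values. In the 3 groups most lists are tied at 0, so the ratio is set by the 2 highest values and that rate does not apply. The Irf8 locus held 109 ppm of H3K18la in GAS, against 7.44 in the next of the 6 lists (ratio 0.932). The Itgam locus held 55.1 ppm of H3K18la in MT, against 7.97 in the next (ratio 0.855). The Csf1r locus held 174 ppm of H3K27me3 in ESC-2i, against 33.6 in the next of 5 lists (ratio 0.807). The lists are different cell types and not replicates of a group.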

How the results depend on the processing

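No paired analysis was possible because the samples of a list were pooled before peaks were called and no column carries a replicate. For H3K18la 93 genes were called (26 higher in macrophages, 67 lower), 140 with a constant of 0.1 (37, 103), 439 with the 5000 largest peaks (363, 76), 203 with gene bodies only (116, 87), 1 with promoters only (0, 1), 0 with the covered share, 180 without trend (92, 88) and 30 without the stem cells (0, 30). Leaving out each cell type gave 13 to 415 calls, with 401 without BMDM (346, 55) and 415 without PIM (223, 192), 17 without GAS, 13 without MT, 27 without ADIPO, 25 without ESC-ser and 15 without ESC-2i, these last 5 all lower. The fits without BMDM or PIM test 1 macrophage list, assumed to vary like the others. For H3K27ac 0 became 823 with the 5000 largest peaks, 206 without trend and 0 to 629 when a cell type was left out, the 629 without BMDM. For H3K27me3 0 became 13 with the filter, 692 with the 5000 largest peaks, 311 with gene bodies only, 291 with promoters only, 94 with the covered share, 453 without trend, 950 without the stem cells and 0 to 831 when a cell type was left out, with 831 without BMDM and 324 without PIM. The cause was not tested.

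Ptprc kept its H3K18la call in 9 of 18 alternatives (adjusted p from 0.000458 to 0.171), Adgre1 passed in 8 of 18 and, for H3K27me3, Irf8 in 5 of 17. For each gene 2 of these are the fits with 1 macrophage list, and the 0.000458 is from that without BMDM. Of 416 values for single genes 359 kept direction and side of the threshold, 36 passed it newly, 9 lost it (all Ptprc) and 12 changed sign. Those were Cd68 for H3K18la (-1.50 with 5000 peaks, -15.94 percentage points covered, -0.10 to 1.65 when a cell type was left out) and H3K27ac (-25.88 points covered, -0.10 to 1.52 when a cell type was left out), Cx3cr1 for H3K27ac (-1.08 with promoters only, -1.61 points covered), and Tyrobp for H3K27me3 (-0.68 with gene bodies only, -2.12 with promoters only, -11.36 points covered, -3.52 without peaks at other promoters, -0.78 without the stem cells), which was called higher with the 5000 largest peaks (5.67, adjusted p = 0.00197). Of 216 pairs of gene and list 83 had a promoter peak, 44 with the 5000 largest peaks and 73 to 80 under the other definitions. The number of genes marked by H3K18la in macrophages alone went from 5 to 3 with the 5000 largest peaks (Csf1r, Ptprc and Tyrobp, of which Csf1r was not among the 5) and was 5 or 6 otherwise. With 1 pooled list per cell type and mark, and no depth used, no value has a replicate error.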
